A study of Mus musculus with 9 samples.

Results

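The genes of excitation-contraction coupling and of the calcium stores were followed in mouse muscle stem cells (MuSCs) before and after culture. A gene belonged to the group if its symbol was on a list of 34 genes for the triad, calcium release, calcium uptake and membrane excitability, and all 34 were found among the 25655 genes of the table. RNA sequencing covered 3 groups with 3 libraries each. Cells with low MyoD-tdTomato signal (MyoD-tdTomato low, below Low cells) and with high signal (MyoD-tdTomato high, below High cells) were MuSCs of MyoD-KI mice made in C57BL/6J zygotes, in which tdTomato is read from the MyoD gene itself, and they were taken from hindlimb muscle (the methods give 10 to 16 weeks as the age for MuSC isolation in general), kept in growth medium for 5 days and parted on a flow cytometer by the strength of the tdTomato signal. The paper gives the mice behind these cultured transcriptomes as heterozygous for the knock-in (KI/+). QSCs (quiescent stem cells) were MuSCs of male Pax7-YFP mice 15 to 16 weeks old, with YFP on both *Pax7* alleles, and were used fresh, without culture. The 2 cultured groups thus differ from QSCs in genotype, mice and culture together, and these cannot be told apart. Since the libraries of each group are given as technical replicates in the methods, p-values here stand for library-to-library spread alone, which may be technical.

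In a skeletal muscle fibre the action potential enters along the transverse tubules and reaches the dihydropyridine receptor, a calcium channel used mainly as a voltage sensor. This sensor opens the ryanodine receptor of the sarcoplasmic reticulum by direct contact at the triad, and calcium leaves the store to start contraction. Calsequestrin and related proteins hold calcium inside the store, potassium channels balance the charge, SERCA pumps return the calcium, and STIM1 with ORAI1 refills an empty store from outside. MuSCs do not contract, and the machinery is laid down as myoblasts differentiate and fuse.

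Library totals were 24471782 to 25767904 counts in Low cells, 24643176 to 26782872 in High cells and 7514633 to 18077031 in QSCs. QSCs replicate 2 was the shallowest and also had the most reads on 1602 chemosensory receptor genes, which muscle should not use, with a mean of 0.987 TPM (a scale that divides counts by transcript length and library size) a gene against 0.191 and 0.215 TPM in the other QSCs libraries and 0.00716 to 0.0118 TPM in cultured libraries. *Myod1* had 941 to 1039 TPM in Low cells, 1839 to 1902 TPM in High cells, and 485 to 664 TPM in QSCs, and *Pax7* had 64.00 to 66.8 TPM in Low cells, 26.4 to 39.6 TPM in High cells, and 67.6 to 95.8 TPM in QSCs. The summed level of 8 markers of committed myogenic cells was 1733 to 3046 TPM in Low cells, 9219 to 15598 TPM in High cells and 829.6 to 869 TPM in QSCs, and that of 16 markers of mature myofibres was 1855 to 4202 TPM in Low cells, 11535 to 20886 TPM in High cells and 565 to 1351 TPM in QSCs. Of these markers, all 8 committed ones and 9 of the 15 tested myofibre ones fell in Low against High cells, where 3.88% of all genes tested fell and 1.23% rose. The committed markers include *Myod1*. The reporter used to sort the cells is read from that gene, so the fall of *Myod1* is not independent of the sort. Against QSCs, 6 of the 15 tested myofibre markers fell and 1 rose in Low cells, where 26.5% of all genes fell and 22.6% rose. In High cells 3 of the 15 fell and 9 rose against QSCs, where 26.4% of all genes fell and 24.6% rose. No committed marker was at 0 in any library, and of the myofibre markers *Mybpc2* was at 0 in at least 1 Low library. Summed markers of pericytes and smooth muscle were 374 to 888 TPM in Low cells, 1312 to 2409 TPM in High cells and 332 to 435 TPM in QSCs, and 2 of the 6 tested fell and 1 rose in Low against High cells, while 8 markers of muscle stem cells summed to 738 to 918 TPM in Low cells, 719 to 767 TPM in High cells and 927 to 1197 TPM in QSCs. The part of these cell states in the results below was not tested, and in bulk RNA fewer cells of a type and less RNA per cell cannot be told apart.

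Most genes of the machinery were lower in Low than in High cells. Counts were tested with the quasi-likelihood test of edgeR, and a gene was called at a Benjamini-Hochberg adjusted p under 0.01 with a fold change over 1.5. Of the 34 genes 32 could be tested, because *Sln* and *Clcn1* had a count of 0 in at least 1 library. In Low against High cells, with no term for the replicate number, 18 of 32 fell and 0 rose, where 3.88% of all 12614 genes tested fell and 1.23% rose. At an unadjusted p under 0.05 the edgeR counts were 26 lower and 1 higher, and DESeq2 and limma on log2(TPM + 1) gave 22 and 19 lower and 0 higher. Of all genes called 24.0% were rises, and upper-quartile scaling moved that share to 34.6%, with 16 of the 32 genes called, all of them lower. The median log2 fold change was -1.84 over the 32 genes and -0.00084 over all genes tested. The fall reached 6 of 8 genes grouped with the voltage sensor, 3 of 8 of calcium release and the triad, 5 of 6 of the store lumen and its counter-ion channels, 1 of 2 tested for calcium uptake, 3 of 5 tested of the surface membrane and calcium entry, and 0 of 3 IP3 receptors. The channel genes *Cacna1h* (called) and *Cacnb3* (not called), which lie beside the skeletal muscle set, were counted with the voltage sensor. In 27 of the 34 genes every Low library was below every High library in CPM (each count scaled to a common library size, with TMM factors), and in 2 every one was above. That separation held for 25.7% of all genes tested downwards and for 20.4% upwards.

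The cultured libraries of one number moved together. Replicate 2 had the lowest TPM of its group for 27 of the 34 genes in Low cells and for 28 in High cells, and the summed TPM of the 34 genes was 2076, 1352 and 1784 in Low cells, 5995, 3760 and 4781 in High cells, and 534, 674 and 553 in QSCs. The fits that follow from this differ. With the replicate number as a block in all libraries 18 genes fell and 0 rose. In a fit of the cultured libraries alone 12 fell and 1 rose without a block, and 23 fell and 1 rose with it. Leaving out the QSCs without a block ended the calls of *Cacna1s*, *Casq2*, *Cav3*, *Hrc*, *Jsrp1*, *Cacng1* and *Srl*, with adjusted p between 0.0143 and 0.0305. Without Low replicate 2 the count of calls was 11, without Low replicate 3 it was 5, without High replicate 1 it was 6 and without High replicate 3 it was 6. All 18 genes kept a negative fold change in each of these fits, and the adjusted p of those not called was at most 0.0463. *Jph1*, *Ryr1*, *Tmem38a* and *Cacnb1* were called in all 22 alternatives, while the call of *Cacng1* was lost in 12 of them, of *Cacng6* in 11, of *Cacna1h* in 9 and of *Cacna1s* in 8.

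**Figure D1:**
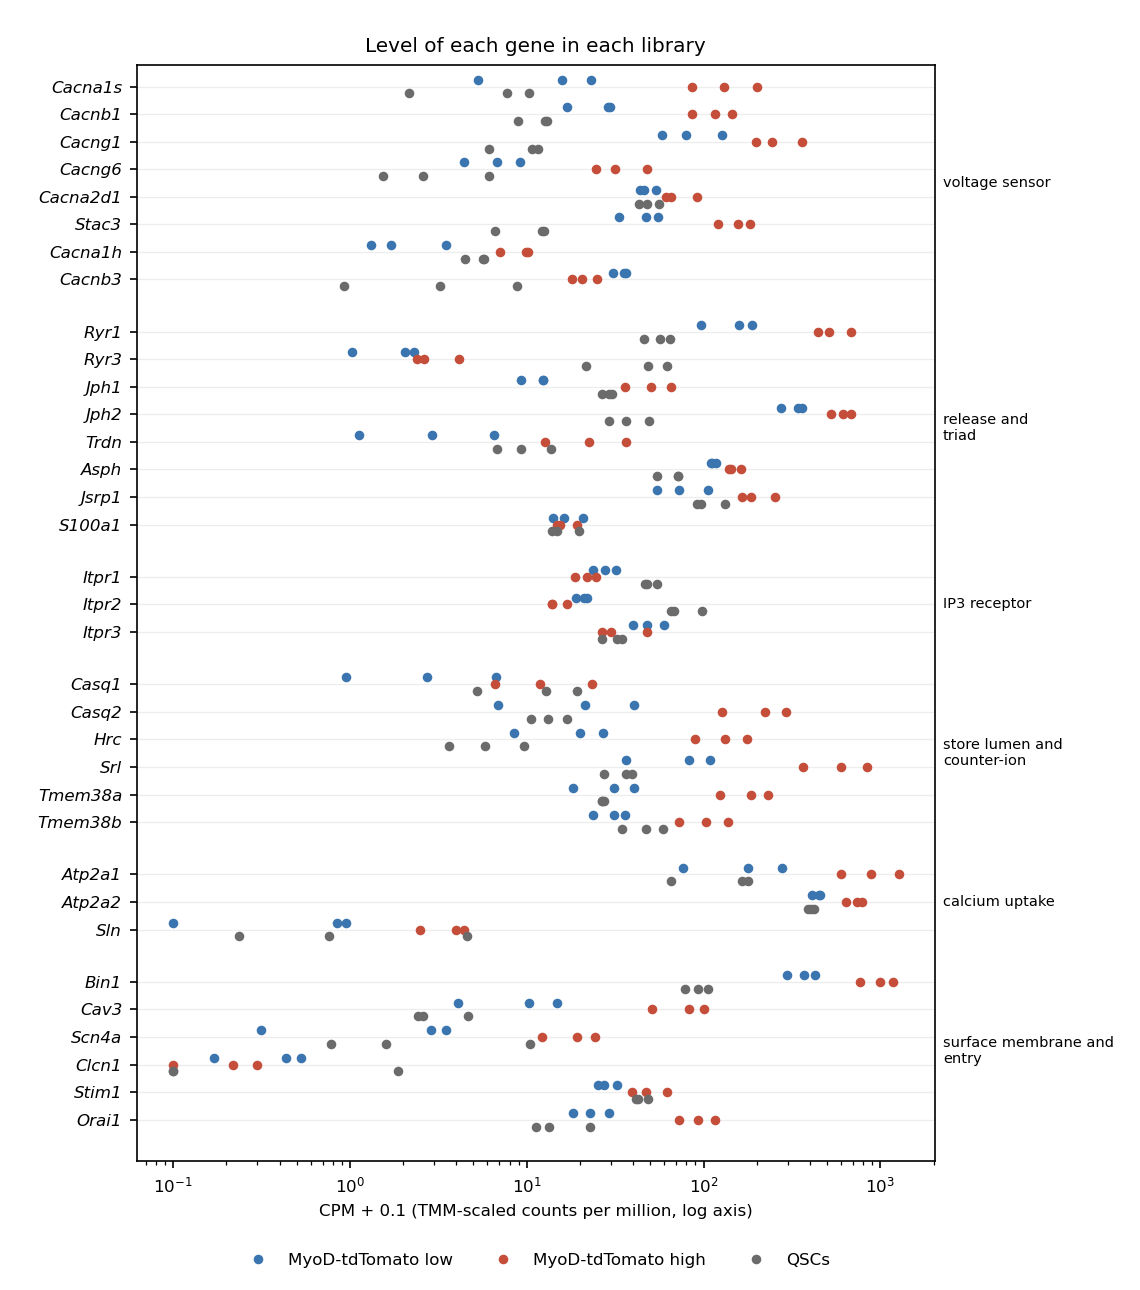
CPM + 0.1 (log axis) of the 34 genes in each of the 9 libraries, grouped by role, with 1 point per library and blue for MyoD-tdTomato low (Low), red for MyoD-tdTomato high (High) and grey for QSCs. For 27 of the 34 genes the 3 blue points lie left of the 3 red ones, and only Cacnb3 and Itpr2 show the opposite order without overlap.

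**Figure D2:**
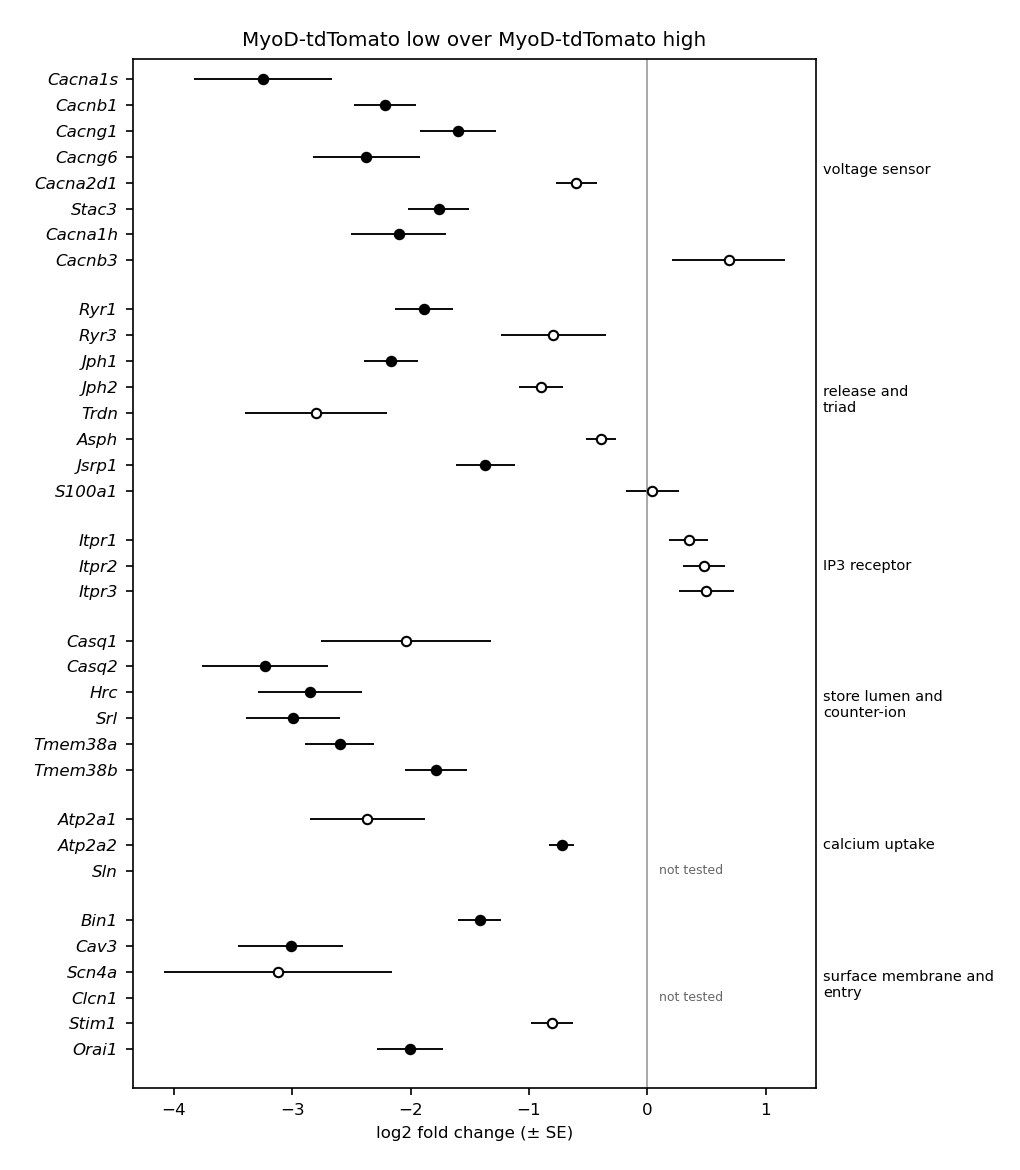
Log2 fold change of Low over High cells with its SE for the 32 genes tested, grouped by role. Filled points are the 18 genes called, which all lie below 0, and open points were not called.

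Against QSCs the cultured groups differed from each other. In Low cells against QSCs 8 of 32 genes rose and 5 fell, where 22.6% of all genes rose and 26.5% fell. In High cells against QSCs 21 of 32 rose and 3 fell, where 24.6% of all genes rose and 26.4% fell. The median log2 fold change of the 32 genes was 0.47 in Low cells against QSCs, where that of all genes was -0.075, and 2.34 in High cells against QSCs, where that of all genes was -0.022. Both comparisons share the QSCs libraries, and the test of their difference is the one between the cultured groups given above. Without QSCs replicate 2, 9 rose and 4 fell in Low cells and 20 rose and 3 fell in High cells. The scale matters here. On log2(TPM + 1) with limma the median of all genes moved to 0.67 in Low cells against QSCs and 79.2% of all calls were rises, against 46.0% on counts, and of the 32 genes 17 rose and 2 fell. For High cells against QSCs it moved to 0.59 and 76.2% of all calls were rises, against 48.2% on counts, and 27 of the 32 genes rose and 2 fell. Between the cultured groups it moved to 0.11. Changes against QSCs are given on the count scale. Its TMM scaling assumes that most genes do not change, so a median near 0 is set by the method. It cannot show which scale is right. TPM values set genes side by side within a library or show the level of markers and of genes outside the 34, and their distance from QSCs carries that shift.

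By mean CPM 17 of the 34 genes had the order High, Low, QSCs. The other orders were High, QSCs, Low for *Cacna2d1*, *Cacna1h*, *Jph1*, *Trdn*, *Jsrp1*, *Casq1*, *Tmem38b*, *Sln*, *Scn4a* and *Stim1*, Low, High, QSCs for *Cacnb3*, *S100a1* and *Itpr3*, QSCs, High, Low for *Ryr3*, and QSCs, Low, High for *Itpr1*, *Itpr2* and *Clcn1*. On mean TPM the order differed for 4 of them, *Cacna2d1*, *Jsrp1*, *Tmem38b* and *Stim1*, which then had Low above QSCs. Many neighbours in these orders overlap between libraries, as the values below show.

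Of the 8 genes grouped with the voltage sensor 6 were called as lower in Low than in High cells, where 3.88% of all genes fell. *Cacna2d1* and *Cacnb3* were not called. *Cacna1s* (chromosome 1, 135980488 to 136047560, plus strand, GRCm39), the pore and voltage sensor of the dihydropyridine receptor, had 22.99, 5.19 and 15.7 CPM in Low cells, 199.9, 85.8 and 130.3 CPM in High cells, and 2.04, 10.2 and 7.63 CPM in QSCs. Every High library was above all others, while Low cells and QSCs overlapped. The level was 9.48-fold lower in Low than in High cells (adjusted p = 0.00562, log2 fold change -3.24, SE 0.58). *Cacnb1*, the beta subunit that brings the pore to the membrane and is needed for coupling, had 29.3, 16.7 and 28.6 CPM in Low cells, 145, 85.6 and 116 CPM in High cells, and 8.79, 12.5 and 12.9 CPM in QSCs. It fell 4.65-fold in Low against High cells (adjusted p = 0.00131, log2 fold change -2.22, SE 0.26), with all 3 groups apart. *Cacng1*, the gamma subunit of the muscle channel, had 127, 58.2 and 79.4 CPM in Low cells, 361, 198 and 244 CPM in High cells, and 5.999, 10.6 and 11.5 CPM in QSCs. Here too no libraries of different groups overlapped, and the fall in Low against High cells was 3.03-fold (adjusted p = 0.00904, log2 fold change -1.599, SE 0.32). That call lay close to the threshold, and it was lost among others with upper-quartile scaling (adjusted p = 0.0129), with the background from chemosensory receptor genes subtracted (0.0124), in the cultured libraries alone (0.0305) and without Low replicate 2 (0.0322), Low replicate 3 (0.045), High replicate 1 (0.0463) or High replicate 3 (0.0286). Per transcript length *Cacng1* stood 31.1 times above *Cacna1s* in Low cells, 9.93 times in High cells and 7.15 times in QSCs, as ratios of mean TPM.

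*Cacng6*, a related gamma subunit, had 9.06, 4.300 and 6.67 CPM in Low cells, 48.1, 24.5 and 31.5 CPM in High cells, and 1.43, 5.98 and 2.49 CPM in QSCs. It fell 5.19-fold in Low against High cells (adjusted p = 0.00736, log2 fold change -2.38, SE 0.45). *Stac3*, an adaptor that the voltage sensor needs to reach the membrane and to couple, had 55.4, 33.1 and 46.97 CPM in Low cells, 182, 120.2 and 157 CPM in High cells, and 6.48, 12.4 and 12.03 CPM in QSCs. The 3 groups did not overlap, and it fell 3.39-fold in Low against High cells (adjusted p = 0.00236, log2 fold change -1.76, SE 0.26). *Cacna2d1*, the alpha2-delta subunit, which many tissues use, had 43.9 to 53.6 CPM in Low cells, 61.02 to 91.8 CPM in High cells, and 42.9 to 56.2 CPM in QSCs and was not called (log2 fold change -0.600 in Low against High cells, adjusted p = 0.0522).

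A pair of channel genes beside the skeletal muscle set behaved in their own ways. *Cacna1h*, a T-type channel that opens at weak depolarisation, was low everywhere, with 1.599, 1.21 and 3.401 CPM in Low cells, 10.04, 6.92 and 9.78 CPM in High cells, and 5.59, 4.37 and 5.64 CPM in QSCs. QSCs lay between the cultured groups without overlap in CPM. In QSCs replicate 2 its 0.888 TPM was no higher than the mean of the chemosensory receptor genes there, 0.987 TPM. In the cultured libraries *Cacna1h* had 0.385 to 2.78 TPM, beside a mean of 0.00716 to 0.0118 TPM for the chemosensory receptor genes. It fell 4.29-fold in Low against High cells (adjusted p = 0.00759, log2 fold change -2.102, SE 0.40), a call that was lost once a background from chemosensory receptor genes was subtracted (adjusted p = 0.162), and without Low replicate 3 it was called as lower in Low cells than in QSCs (adjusted p = 0.00245, log2 fold change -1.89). *Cacnb3*, a beta subunit best known from other tissues, had 30.7, 35.2 and 36.2 CPM in Low cells, 17.98, 24.9 and 20.5 CPM in High cells, and 3.14, 8.75 and 0.8298 CPM in QSCs. It was the one gene grouped with the voltage sensor that had every Low library above every High library, at 1.61 times the level, which was not called (adjusted p = 0.447, log2 fold change 0.69, SE 0.47). It was called as higher in the cultured libraries alone, both without a block (adjusted p = 0.0069) and with it (adjusted p = 5.53e-05, log2 fold change 0.72, SE 0.091), and was not with the block in all libraries (adjusted p = 0.384). Of the summed TPM of *Cacnb1* and *Cacnb3*, *Cacnb1* took 34.6% ± 7.89 in Low cells, 79.3% ± 7.05 in High cells and 70.2% ± 20.5 in QSCs (SD, n = 3 each), with no overlap between the cultured groups. Of *Cacna1s* plus *Cacna1h*, *Cacna1s* took 88.5% ± 5.60 in Low cells, 94.99% ± 1.13 in High cells and 57.0% ± 22.3 in QSCs.

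Against QSCs, 4 of the 8 genes grouped with the voltage sensor rose in Low cells and 6 in High cells, where 22.6% and 24.6% of all genes rose. *Cacng1* rose by a log2 fold change of 3.26 in Low cells (adjusted p = 1.95e-05) and by 4.85 in High cells (adjusted p = 1.41e-06). On the same scale *Stac3* rose by 2.16 in Low cells and 3.92 in High cells. *Cacnb1* rose by 1.14 in Low cells and 3.35 in High cells, and *Cacnb3* by 3.11 in Low cells and 2.43 in High cells. *Cacna1s* and *Cacng6* rose in High cells by 4.46 and 3.49, while in Low cells their values were 1.22 (adjusted p = 0.101) and 1.11 (adjusted p = 0.0657) and were not called. Without QSCs replicate 2, which held the highest QSCs values of *Cacna1s*, *Cacng6* and *Cacnb3*, *Cacng6* was called in Low cells (adjusted p = 0.0061, log2 fold change 1.79). The call of *Cacnb1* in Low cells was lost without Low replicate 1 (adjusted p = 0.0155), Low replicate 3 (0.0151) or QSCs replicate 1 (0.0198), and that of *Cacnb3* in High cells without QSCs replicate 1 (0.0125).

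The ryanodine receptors showed a change of isoform between fresh and cultured cells. *Ryr1* (chromosome 7, 28702769 to 28824604, minus strand, GRCm39), the release channel of skeletal muscle, had 187, 96.9 and 159 CPM in Low cells, 678, 443 and 515 CPM in High cells, and 45.7, 64.9 and 56.3 CPM in QSCs. It fell 3.700-fold in Low against High cells (adjusted p = 0.00152, log2 fold change -1.89, SE 0.24) and rose against QSCs in both, by 1.41 in Low cells (adjusted p = 0.000473) and 3.299 in High cells (adjusted p = 1.48e-06) on the log2 scale. *Ryr3* (chromosome 2, 112461700 to 113047441, minus strand, GRCm39), an isoform of immature and some adult muscles, had 2.203, 0.924 and 1.95 CPM in Low cells, 4.03, 2.31 and 2.51 CPM in High cells, and 62.1, 48.7 and 21.4 CPM in QSCs. It went the other way and fell against QSCs in Low cells (adjusted p = 1.02e-05, log2 fold change -4.696, SE 0.47) and in High cells (adjusted p = 2.56e-05, log2 fold change -3.901, SE 0.45). Between the cultured groups *Ryr3* was not called (adjusted p = 0.327, log2 fold change -0.795). *Ryr1* made up 98.9% ± 0.143 of the summed TPM of both in Low cells, 99.5% ± 0.0524 in High cells and 57.7% ± 14.99 in QSCs (SD, n = 3 each). The QSCs libraries spread widely, at 42.8%, 57.5% and 72.7%, and all lay below the cultured ones.

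The junctophilins, which bind the reticulum to the transverse tubule, also parted. *Jph1*, the isoform of skeletal muscle, had 12.2, 9.17 and 12.3 CPM in Low cells, 65.3, 35.8 and 50.1 CPM in High cells, and 29.2, 30.3 and 26.6 CPM in QSCs, and the 3 groups did not overlap. It fell 4.49-fold in Low against High cells (adjusted p = 0.00131, log2 fold change -2.17, SE 0.22), and it was one of the few genes that fell in Low cells against QSCs (adjusted p = 3.43e-04, log2 fold change -1.35, SE 0.22), a call that was lost on log2(TPM + 1) (adjusted p = 0.0620, log2 fold change -0.50). Its rise in High cells against QSCs (adjusted p = 0.00712, log2 fold change 0.81, SE 0.22) was called in 2 of the 9 fits that each left out 1 library, and the highest adjusted p was 0.0432, without High replicate 1. *Jph2*, shared with heart, had 359, 273 and 341 CPM in Low cells, 681, 523 and 613 CPM in High cells, and 28.97, 36.3 and 49.3 CPM in QSCs. It rose against QSCs in Low cells (adjusted p = 4.62e-07, log2 fold change 3.09, SE 0.20) and in High cells (adjusted p = 9.89e-08, log2 fold change 3.99, SE 0.21). Its difference between the cultured groups, 1.87-fold lower in Low cells, just missed the threshold (adjusted p = 0.0107, log2 fold change -0.900, SE 0.19). It passed in the cultured libraries alone, without a block (adjusted p = 0.00373) and with it (adjusted p = 1.52e-07, log2 fold change -0.87, SE 0.056), and not with the block in all libraries (adjusted p = 0.0106). *Jph1* was 2.86% ± 0.109 of the summed TPM of both in Low cells, 6.52% ± 1.02 in High cells and 39.8% ± 7.52 in QSCs, so that *Jph2* was the main junctophilin transcript in every library.

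Of the other triad genes only *Jsrp1* was called between the cultured groups. *Jsrp1*, which codes for JP-45, a partner of the voltage sensor and of calsequestrin, had 106, 54.1 and 72.9 CPM in Low cells, 252, 165 and 185 CPM in High cells, and 92.02, 96.4 and 132 CPM in QSCs. It fell 2.58-fold in Low against High cells (adjusted p = 0.00616, log2 fold change -1.37, SE 0.25) and rose in High cells against QSCs (adjusted p = 0.00776, log2 fold change 0.91, SE 0.25), a call that was lost without QSCs replicate 2 (adjusted p = 0.0264, log2 fold change 0.84) and in 4 of the other 8 fits that left out 1 library, with an adjusted p of up to 0.0392. *Trdn*, which codes for triadin, the anchor of calsequestrin at the release channel, had 1.03 to 6.397 CPM in Low cells, 12.6 to 36.3 CPM in High cells, and 6.68 to 13.6 CPM in QSCs. The cultured groups did not overlap and the difference missed the threshold (adjusted p = 0.0131, log2 fold change -2.800, SE 0.60). With the block in the cultured libraries alone it passed (adjusted p = 2.22e-07, log2 fold change -2.88, SE 0.17), and it did not with either change by itself (adjusted p = 0.0132 with the block in all libraries and 0.0401 in the cultured libraries without it). Without Low replicate 1, *Trdn* was called as lower in Low cells than in QSCs (adjusted p = 0.00698, log2 fold change -2.33). *Asph*, whose locus codes for junctin and junctate as well as an enzyme, so that gene counts mix them, had 110.0 to 118 CPM in Low cells, 139 to 163 CPM in High cells, and 54.5 to 71.6 CPM in QSCs. It rose against QSCs in Low cells (adjusted p = 3.13e-04, log2 fold change 0.78) and High cells (adjusted p = 1.64e-05, log2 fold change 1.17) and was not called between the cultured groups (adjusted p = 0.076, log2 fold change -0.39). *S100a1*, a calcium sensor that binds the release channel, had 13.9 to 20.8 CPM in Low cells, 14.8 to 19.2 CPM in High cells, and 13.7 to 19.6 CPM in QSCs, with all groups overlapping and no call in any comparison.

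The IP3 receptors, release channels that most cell types use, were not called between the cultured groups. *Itpr1* had 23.7, 31.7 and 27.5 CPM in Low cells, 18.7, 24.5 and 21.8 CPM in High cells, and 54.5, 46.7 and 47.7 CPM in QSCs. *Itpr2* had 21.9, 18.98 and 21.1 CPM in Low cells, 13.9, 16.8 and 13.8 CPM in High cells, and 97.95, 65.6 and 68.3 CPM in QSCs. *Itpr3* had 39.9, 59.6 and 47.8 CPM in Low cells, 26.5, 47.9 and 29.8 CPM in High cells, and 26.5, 34.4 and 32.4 CPM in QSCs. All 3 had a positive log2 fold change in Low against High cells, of 0.35, 0.48 and 0.499 for *Itpr1*, *Itpr2* and *Itpr3*, and the lowest adjusted p was 0.125. The count called by edgeR was 0 of 3, with 1 higher at an unadjusted p under 0.05 and 0 by DESeq2 or limma. Against QSCs, *Itpr1* fell in Low (adjusted p = 9.32e-04, log2 fold change -0.85, SE 0.16) and High cells (adjusted p = 8.47e-05, log2 fold change -1.19, SE 0.16), and *Itpr2* fell in Low (adjusted p = 6.29e-06, log2 fold change -1.91, SE 0.18) and High cells (adjusted p = 1.25e-06, log2 fold change -2.38, SE 0.18). On log2(TPM + 1), where the median gene moved up, *Itpr1* was called in neither comparison (adjusted p = 0.838, log2 fold change -0.048 in Low cells and -0.46, adjusted p = 0.0571 in High cells), while *Itpr2* was called as lower in both. *Itpr3* was called in neither (log2 fold change 0.66, adjusted p = 0.0304 and 0.16, adjusted p = 0.563). *Itpr3* made up 54.4% ± 3.43 of the summed IP3 receptor TPM in Low cells, 52.2% ± 4.89 in High cells and 23.5% ± 5.09 in QSCs, where *Itpr2* led with 43.0% ± 5.51. The summed IP3 receptor TPM stood to *Ryr1* TPM as 1.16 ± 0.579 in Low cells, 0.219 ± 0.0937 in High cells and 4.28 ± 1.197 in QSCs (SD, n = 3 each), and no libraries of different groups overlapped. Beside the fall of *Itpr1* and *Itpr2*, summed endothelial markers were 23.0 to 40.6 TPM in Low cells, 5.07 to 7.35 TPM in High cells and 409.6 to 731 TPM in QSCs, and all 8 tested of 10 fell in both cultured groups. Of all genes 26.5% fell in Low cells and 26.4% in High cells against QSCs. *Cldn5* was at 0 in every High library and *Tie1* in at least 1. Fibroblast markers summed to 621 to 925 TPM in Low cells, 486 to 572 TPM in High cells and 1280.1 to 1879 TPM in QSCs, and of the 5 tested of 8 markers 4 fell in Low cells and 5 in High cells against QSCs. Myeloid markers summed to 43.3 to 74.2 TPM in Low cells, 8.79 to 19.8 TPM in High cells and 74.8 to 122 TPM in QSCs, and of the 6 tested of 8, 3 fell in Low cells and 6 in High cells, with *Ptprc* at 0 in every High library. Schwann cell markers summed to 5.10 to 16.01 TPM in Low cells, 2.13 to 2.69 TPM in High cells and 54.1 to 100.2 TPM in QSCs, and of the 3 tested of 5, 2 fell in Low cells and 3 in High cells. The 4 markers of neutrophils and lymphocytes, none of them tested, summed to at most 0.366 TPM in Low cells, at most 0.164 TPM in High cells and 8.08 to 22.6 TPM in QSCs. Of the 8 muscle stem cell markers 5 fell and 0 rose in Low cells against QSCs, and 5 fell and 1 rose in High cells. Of the 6 tested pericyte and smooth muscle markers 3 fell and 1 rose in Low cells, and 2 fell and 2 rose in High cells. The part of other cell types in the QSCs values was not tested.

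**Figure D3:**
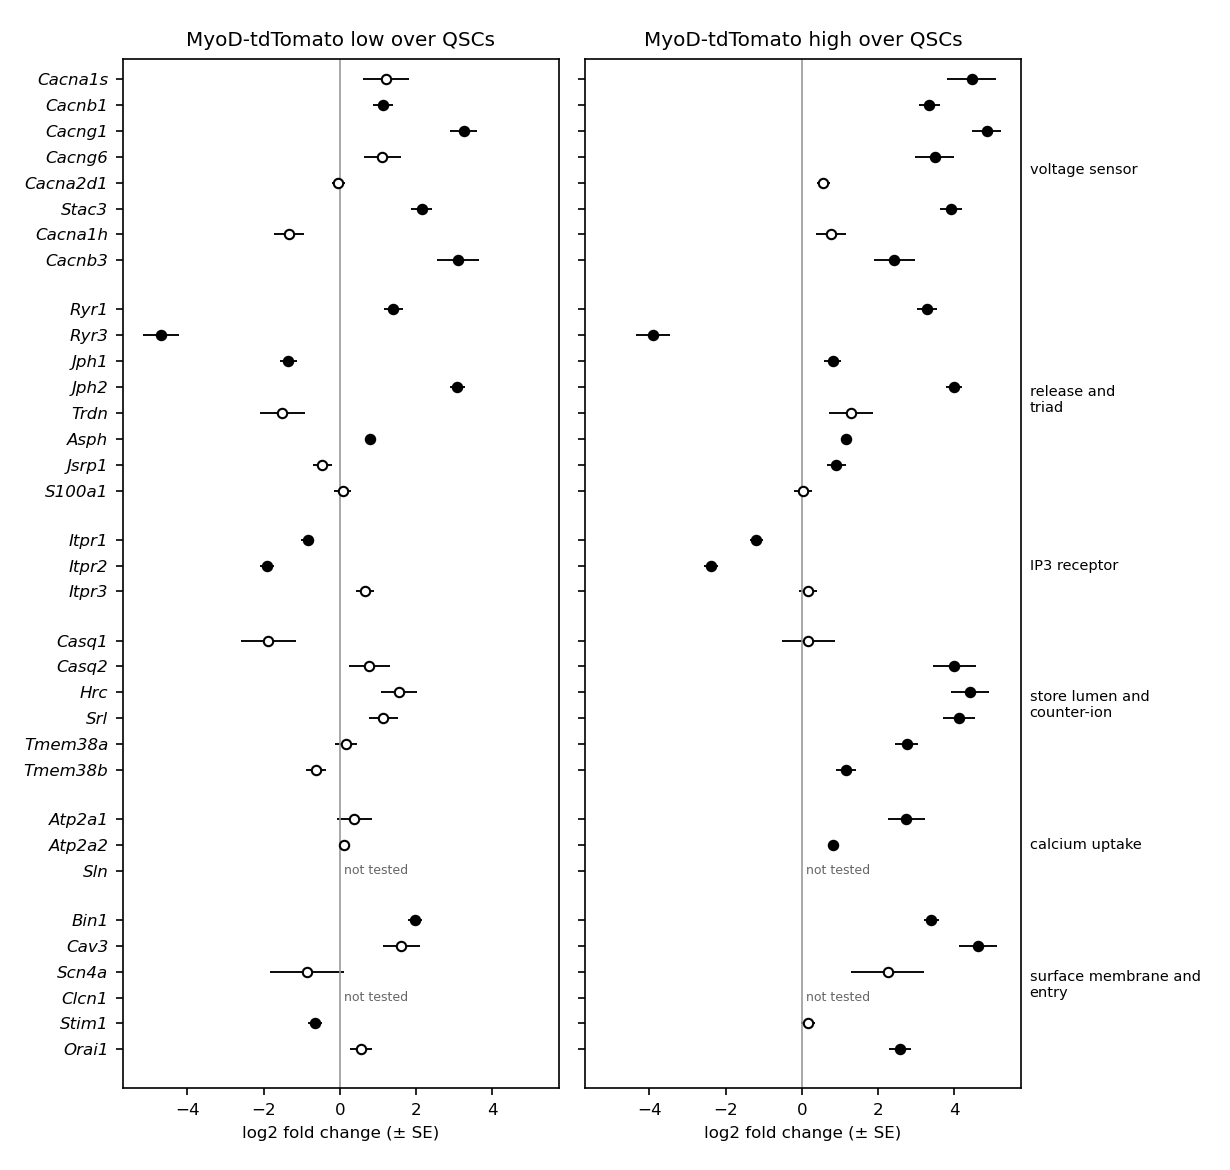
Log2 fold change with its SE of Low over QSCs (left) and High over QSCs (right) for the 32 genes tested, grouped by role, with filled points for genes called. Ryr3, Itpr1 and Itpr2 lie below 0 on both sides, while Cacna1s, Casq2, Hrc, Srl and Cav3 are called only on the right.

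The store lumen had the lowest median of the 6 roles in Low against High cells, a log2 fold change of -2.72 with 5 of 6 genes called. *Casq2*, the calsequestrin of heart and slow muscle, had 40.4, 6.79 and 21.3 CPM in Low cells, 293, 127 and 222 CPM in High cells, and 13.1, 16.8 and 10.5 CPM in QSCs. High libraries lay far above the rest, and *Casq2* fell 9.39-fold in Low cells (adjusted p = 0.00399, log2 fold change -3.23, SE 0.53). The call was lost in the cultured libraries alone, without a block (adjusted p = 0.0258) and with it (adjusted p = 0.0117, log2 fold change -3.38, SE 0.35), and held with the block in all libraries (adjusted p = 0.00222). *Casq1*, the calsequestrin of fast muscle, had 6.65, 0.853 and 2.63 CPM in Low cells, 23.4, 6.505 and 11.8 CPM in High cells, and 5.11, 12.8 and 19.3 CPM in QSCs. Its groups overlapped in all 3 comparisons and it was not called between the cultured groups (adjusted p = 0.105, log2 fold change -2.04, SE 0.72). With the block in the cultured libraries alone it was called (adjusted p = 2.42e-06, log2 fold change -2.13, SE 0.18), and it was not with the block in all libraries (adjusted p = 0.0798) or in the cultured libraries without it (0.126). In each numbered pair of cultured libraries *Casq1* was lower in Low cells. *Casq1* made up 16.03% ± 2.23 of the summed calsequestrin TPM in Low cells, 7.82% ± 1.88 in High cells and 52.8% ± 18.3 in QSCs (SD, n = 3 each), so *Casq2* was the main calsequestrin transcript of all 6 cultured libraries. In QSCs the share ran from 35.2% to 71.7% and no order could be read.

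*Hrc*, a histidine-rich protein that binds calcium in the lumen, had 26.9, 8.35 and 19.9 CPM in Low cells, 177, 88.9 and 133 CPM in High cells, and 3.54, 5.69 and 9.54 CPM in QSCs. It fell 7.22-fold in Low against High cells (adjusted p = 0.00287, log2 fold change -2.85, SE 0.44). *Srl*, which codes for sarcalumenin, another luminal calcium binder, had 108, 36.4 and 82.1 CPM in Low cells, 838, 364 and 599.5 CPM in High cells, and 27.2, 39.4 and 36.4 CPM in QSCs. It fell 7.95-fold in the same comparison (adjusted p = 0.0016, log2 fold change -2.99, SE 0.40), and in both genes no High library came near the others. The counter-ion channels of the store, TRIC-A and TRIC-B, followed. *Tmem38a*, for TRIC-A of excitable tissues, had 40.6, 18.1 and 31.04 CPM in Low cells, 233, 124 and 186 CPM in High cells, and 27.4, 26.4 and 26.7 CPM in QSCs. It fell 6.05-fold in Low against High cells (adjusted p = 0.00131, log2 fold change -2.597, SE 0.29). *Tmem38b*, for the more widespread TRIC-B, had 35.8, 23.5 and 31.2 CPM in Low cells, 137, 72.5 and 103 CPM in High cells, and 34.4, 59.2 and 46.97 CPM in QSCs and fell 3.45-fold (adjusted p = 0.00243, log2 fold change -1.79, SE 0.26). *Tmem38a* took 57.3% ± 4.86 of the summed TPM of both in Low cells, 71.0% ± 0.665 in High cells and 45.3% ± 7.20 in QSCs.

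Against QSCs edgeR called 0 of the 6 store genes in Low cells, where 2 were lower and 2 higher at an unadjusted p under 0.05 and DESeq2 and limma each called 2 as higher, with log2 fold changes of -1.87 for *Casq1* (adjusted p = 0.0416), 0.78 for *Casq2* (0.218), 1.56 for *Hrc* (0.0130), 1.14 for *Srl* (0.0227), 0.16 for *Tmem38a* (0.650) and -0.63 for *Tmem38b* (0.0550). Without Low replicate 2, *Hrc* (adjusted p = 0.00196, log2 fold change 1.91) and *Srl* (1.48, 0.00212) were called as higher. Of all genes 22.6% rose and 26.5% fell in Low cells against QSCs. In High cells 5 of the 6 rose against QSCs, where 24.6% of all genes rose. *Hrc* rose by 4.41, *Srl* by 4.14, *Casq2* by 4.01, *Tmem38a* by 2.75 and *Tmem38b* by 1.16 on the log2 scale, and *Casq1* was not called (adjusted p = 0.843, log2 fold change 0.17, SE 0.69). The rise of *Tmem38b* was lost without High replicate 1 (adjusted p = 0.0132), QSCs replicate 1 (0.0125) or QSCs replicate 3 (0.0108).

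The calcium pumps were among the most abundant of the transcripts. *Atp2a2*, for SERCA2, the pump of the endoplasmic reticulum in most cells and of slow muscle, had 411, 449 and 453 CPM in Low cells, 791, 637 and 740.0 CPM in High cells, and 424, 389 and 405 CPM in QSCs. It fell 1.65-fold in Low against High cells (adjusted p = 0.00241, log2 fold change -0.72, SE 0.11), the smallest fall called. *Atp2a1*, for SERCA1 of fast muscle, had 279, 76.7 and 178 CPM in Low cells, 1266, 600.5 and 880.3 CPM in High cells, and 65.7, 165 and 179 CPM in QSCs. No Low library reached any High library, yet the spread within groups was wide and the 5.15-fold lower level just missed the threshold (adjusted p = 0.0107, log2 fold change -2.36, SE 0.49). With the block in the cultured libraries alone it passed (adjusted p = 6.53e-04, log2 fold change -2.45, SE 0.18), and it did not with the block in all libraries (adjusted p = 0.0151) or in the cultured libraries without it (0.0308). Against QSCs, *Atp2a1* rose in High cells (adjusted p = 6.11e-04, log2 fold change 2.75, SE 0.50) and was not called in Low cells (adjusted p = 0.487, log2 fold change 0.39), and *Atp2a2* rose in High cells (adjusted p = 5.21e-05, log2 fold change 0.83, SE 0.11) and was not called in Low cells (adjusted p = 0.386, log2 fold change 0.11). SERCA1 made up 38.0% ± 15.4 of the summed TPM of both pumps in Low cells, 66.5% ± 5.85 in High cells and 34.5% ± 12.3 in QSCs (SD, n = 3 each). It was above 60.8% in all High libraries and at 21.9% to 52.8% in Low cells. *Sln*, for sarcolipin, a small inhibitor of the pump, was close to the limit of counting, with 24, 0 and 22 counts in Low cells, 110, 68 and 99 counts in High cells, and 2, 31 and 8 counts in QSCs. It was not tested in the comparisons above, and in a fit with a looser filter it was not called between the cultured groups (adjusted p = 0.247, log2 fold change -2.72).

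**Figure D4:**
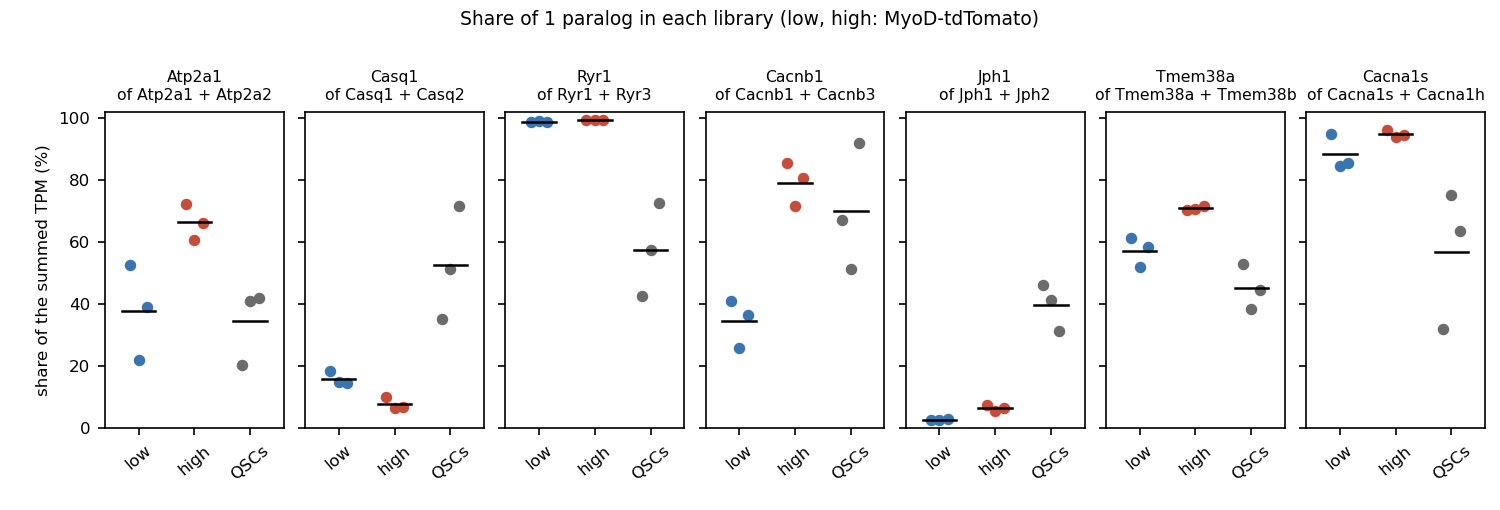
Share (%) of 1 gene in the summed TPM of a pair of related genes in each library, with points for libraries and a bar for the group mean, for Low (blue), High (red) and QSCs (grey). The shares of Ryr1, Jph1 and Casq1 part every group from the others. That of Cacna1s parts the cultured libraries from QSCs, and those of Cacnb1, Atp2a1 and Tmem38a part Low from High cells.

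At the surface, *Bin1* and *Cav3* shape the transverse tubule. *Bin1*, which codes for amphiphysin 2, a protein that bends membranes, had 428, 298 and 369 CPM in Low cells, 1171, 767 and 989 CPM in High cells, and 78.9, 93.5 and 105 CPM in QSCs. By mean TPM it was the most abundant of the 34 genes in both cultured groups, with 309 to 418 TPM in Low cells, 733 to 1054 TPM in High cells, and 47.5 to 61.7 TPM in QSCs. It fell 2.67-fold in Low against High cells (adjusted p = 0.00152, log2 fold change -1.42, SE 0.18) and rose against QSCs in Low (adjusted p = 6.65e-06, log2 fold change 1.98, SE 0.19) and High cells (adjusted p = 1.84e-07, log2 fold change 3.399, SE 0.20). *Cav3*, for the muscle caveolin, had 14.8, 3.98 and 10.2 CPM in Low cells, 101, 50.8 and 82.2 CPM in High cells, and 2.32, 2.48 and 4.56 CPM in QSCs. It fell 8.07-fold in Low against High cells (adjusted p = 0.00241, log2 fold change -3.01, SE 0.44), and it rose in High cells against QSCs (adjusted p = 1.67e-05, log2 fold change 4.63, SE 0.51) while the difference of Low cells from QSCs missed the threshold (adjusted p = 0.0131, log2 fold change 1.61, SE 0.48) and passed it without Low replicate 2 (adjusted p = 0.00119, log2 fold change 1.98).

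The channels that carry and end the action potential were scarce. *Scn4a*, for the sodium channel of muscle, had 0.213 to 3.38 CPM in Low cells, 12.1 to 24.1 CPM in High cells, and 0.682 to 10.4 CPM in QSCs. It was 8.703-fold lower in Low than in High cells, without overlap, which was not called (adjusted p = 0.0656, log2 fold change -3.12, SE 0.96). With the block in the cultured libraries alone it was called (adjusted p = 0.00839, log2 fold change -3.21, SE 0.47), and it was not with the block in all libraries (adjusted p = 0.114) or in the cultured libraries without it (0.034). QSCs replicate 2 held 71 counts against 10 and 18 in the other QSCs libraries, and without it *Scn4a* was called as higher in High cells than in QSCs (adjusted p = 0.00296, log2 fold change 4.11). *Clcn1*, for the chloride channel that steadies the resting potential of adult fibres, had 2, 12 and 10 counts in Low cells, 3, 0 and 5 counts in High cells, and 26, 0 and 0 counts in QSCs. These counts are too few for any comparison, and *Clcn1* was not tested.

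Of store-operated entry the channel was called between the cultured groups and the sensor was not, a contrast that was not tested. *Orai1*, the channel, had 28.96, 18.2 and 22.8 CPM in Low cells, 116, 72.5 and 93.1 CPM in High cells, and 22.6, 13.3 and 11.1 CPM in QSCs. It fell 4.02-fold in Low against High cells (adjusted p = 0.00185, log2 fold change -2.01, SE 0.28) and rose in High cells against QSCs (adjusted p = 2.09e-05, log2 fold change 2.57, SE 0.29). *Stim1*, the calcium sensor of the reticulum, had 25.3 to 32.2 CPM in Low cells, 39.1 to 62.2 CPM in High cells, and 41.4 to 48.2 CPM in QSCs. It was 1.75-fold lower in Low than in High cells, which missed the threshold (adjusted p = 0.0156, log2 fold change -0.81, SE 0.18). It passed with the block, in the cultured libraries alone (adjusted p = 1.35e-05, log2 fold change -0.76, SE 0.081) and in all libraries (adjusted p = 0.00651), and not in the cultured libraries without it (0.0159). It was called as lower in Low cells than in QSCs (adjusted p = 0.00969, log2 fold change -0.64, SE 0.18), a call that was lost without QSCs replicate 2 (adjusted p = 0.0113, log2 fold change -0.68) and in 6 of the other 8 fits that left out 1 library, with an adjusted p of up to 0.0416, and that changed sign on log2(TPM + 1) (log2 fold change 0.14).

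Promoter sequences were at hand in a RefSeq table (GRCm38.p6, another build than the GRCm39 of the gene positions above) for 20 of the 34 genes, in 23 windows that run 250 bases before and 50 bases after the gene start. The letters CAGCTG, an E-box core that MyoD family factors are known to bind, and which reads the same on both strands, were in 8 of the 23 windows and in 16.3% of all 32851 promoter windows. They were found for *Atp2a1*, *Cacna1s*, *Casq1*, *Cav3*, *Hrc*, *Orai1* and both windows of *Jph2*. The *Jph2* windows overlap and hold the same site, so that by gene CAGCTG was found for 7 of 20. The looser E-box CANNTG, which contains CAGCTG, was in 17 of 23 windows against 72.3% of all, CAGGTG or its reverse CACCTG in 3 of 23 against 20.2%, and the MEF2 box, searched on both strands, in 2 of 23, *Casq2* and *Clcn1*, against 3.19%. Of the 18 genes that fell in Low against High cells 9 had a window, and 4 of the 9 held CAGCTG. The 250 bases before the start are shown for 4 of the genes with the steepest falls, with CAGCTG in capitals in the first 3 and the MEF2 box in capitals in *Casq2*. A match describes letters and not a bound site. *Cacna1s* lies at chr1:136052561-136052810, plus strand, with CAGCTG starting 123 bases before the start. *Cav3* lies at chr6:112459255-112459504, plus strand, with CAGCTG 106 bases before the start. *Hrc* lies at chr7:45335019-45335268, plus strand, with CAGCTG 22 bases before the start. *Casq2* lies at chr3:102086165-102086414, plus strand, with the box 69 bases before the start.
Cacna1s: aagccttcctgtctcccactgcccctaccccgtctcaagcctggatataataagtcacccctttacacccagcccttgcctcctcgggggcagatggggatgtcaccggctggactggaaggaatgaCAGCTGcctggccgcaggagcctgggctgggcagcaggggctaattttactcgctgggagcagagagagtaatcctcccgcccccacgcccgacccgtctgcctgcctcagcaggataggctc
Cav3: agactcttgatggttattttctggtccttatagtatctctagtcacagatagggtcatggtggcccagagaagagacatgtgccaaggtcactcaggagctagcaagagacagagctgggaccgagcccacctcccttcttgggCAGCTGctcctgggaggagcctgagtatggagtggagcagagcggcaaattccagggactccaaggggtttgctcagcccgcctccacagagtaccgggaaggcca
Hrc: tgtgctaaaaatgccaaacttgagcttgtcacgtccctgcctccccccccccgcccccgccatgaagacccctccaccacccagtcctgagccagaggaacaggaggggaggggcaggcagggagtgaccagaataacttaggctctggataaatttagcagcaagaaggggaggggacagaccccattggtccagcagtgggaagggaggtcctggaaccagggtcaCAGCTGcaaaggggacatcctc
Casq2: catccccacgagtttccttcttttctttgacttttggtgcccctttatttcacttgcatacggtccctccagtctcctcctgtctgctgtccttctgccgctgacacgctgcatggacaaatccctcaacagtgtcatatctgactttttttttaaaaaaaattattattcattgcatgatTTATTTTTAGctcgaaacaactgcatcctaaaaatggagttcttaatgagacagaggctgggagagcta

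Of the other genes of calcium handling and of the membranes around it a smaller share was called between the cultured groups. On a list of 94 further genes (calmodulins, calcineurin, mitochondrial uptake, plasma membrane pumps and exchangers, luminal chaperones, caveolae and others), 92 were in the table and 77 could be tested. In Low against High cells 10 of the 77 fell and 1 rose, where 3.88% of all genes tested fell and 1.23% rose. The median log2 fold change of the 77 was -0.28. The steepest fall was in *Pvalb*, the calcium buffer parvalbumin, which is also among the myofibre markers, with 0.181 to 0.515 TPM in Low cells, 1.48 to 4.497 TPM in High cells, and 30.5 to 64.4 TPM in QSCs (adjusted p = 0.00679, log2 fold change -3.27, SE 0.61). *Trim72*, a membrane repair protein of muscle, had 9.25 to 51.3 TPM in Low cells, 165 to 336 TPM in High cells, and 4.32 to 7.505 TPM in QSCs (adjusted p = 0.00385, log2 fold change -3.13, SE 0.52), and *Cavin4*, a caveola protein of muscle, had 62.9 to 79.2 TPM in Low cells, 179 to 313 TPM in High cells, and 5.12 to 7.68 TPM in QSCs (adjusted p = 0.00131, log2 fold change -1.92, SE 0.23). *Cav1*, the general caveolin, was the gene that rose, with 114 to 132 TPM in Low cells, 54.3 to 67.9 TPM in High cells, and 139 to 219 TPM in QSCs (adjusted p = 0.00395, log2 fold change 0.81, SE 0.13). *Cav1* rose and *Cav3* fell in Low against High cells.

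Against QSCs, 16 of the 77 rose and 27 fell in Low cells, and 21 rose and 23 fell in High cells, beside the shares of all genes given above. In Low cells *Cavin4* rose most (adjusted p = 6.92e-06, log2 fold change 2.64, SE 0.25) and *Pvalb* fell most (adjusted p = 1.31e-06, log2 fold change -7.98, SE 0.61). In High cells *Trim72* rose most (adjusted p = 3.58e-05, log2 fold change 4.74, SE 0.58) and *Cacna1d*, an L-type channel, fell most (adjusted p = 2.77e-06, log2 fold change -5.100, SE 0.44). Among the most abundant, *Hspa5*, the chaperone BiP, which also binds calcium in the endoplasmic reticulum, had 442 to 473 TPM in Low cells, 429 to 447 TPM in High cells, and 1421 to 1653 TPM in QSCs. It fell in Low (adjusted p = 2.70e-08, log2 fold change -2.54, SE 0.11) and High cells (adjusted p = 2.56e-08, log2 fold change -2.48, SE 0.11). *Fkbp1a*, for the protein that steadies the release channel, rose in Low (adjusted p = 1.68e-04, log2 fold change 0.73, SE 0.11) and High cells (adjusted p = 2.33e-04, log2 fold change 0.69, SE 0.11), as did *Canx*, the chaperone calnexin (adjusted p = 3.59e-04, log2 fold change 0.78, SE 0.13 and adjusted p = 2.55e-04, log2 fold change 0.81, SE 0.13). *Cavin1*, a general caveola protein, rose in Low cells (adjusted p = 0.00203, log2 fold change 0.65, SE 0.14).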

How the data were processed

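RNA-seq of 3 libraries each of Low cells, High cells and QSCs was analysed, grouped by the sample labels. The authors mapped and counted poly(A) reads in CLC Genomics Workbench 20.0.3 on GRCm39 and deposited raw counts per gene, with no normalization, and TPM, scaled within each library. The annotation and the strand setting are not given in the sources used here, so reads of a gene and an antisense gene cannot be told apart. Not used were 24 columns with comparisons by the authors, which hold fold changes and p-values, and 18 further columns of per-sample values.

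Counts were fitted with the quasi-likelihood test of edgeR 4.0.16 under R 4.3.3, in its robust form and after TMM scaling, all 9 libraries being in 1 model with a coefficient for each group, for the 12614 genes with no count of 0, and Benjamini-Hochberg adjustment covered all of them. Log2 fold changes are the first group over the second, and where a gene is said to be lower by a fold, that fold is the second group over the first. A prior count of 2 was used only for the log values behind the correlations between libraries. Tried in its place were upper-quartile or RLE scaling, DESeq2 1.42.0, limma 3.58.1 on log2(TPM + 1) or log2(TPM + 0.1), filterByExpr or no filter, a threshold of 0.05 with the fold change or alone, a model of only the groups compared, a replicate block, subtraction of a background per length from chemosensory receptor genes, and leaving out each library. The fit was tested on simulated data. Promoter motifs were counted in Python 3.11.15.

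The labels give replicate numbers and no pairs. Deviations from the group means correlated across genes at 0.44, 0.43 and 0.18 for Low and High libraries of the same number. For Low and High libraries of different numbers the correlations ran from -0.43 to 0.013, so pairing by number is possible but not given. QSCs came from other mice. No library duplicated another. Values in every library are given for genes called between the cultured groups, for paralog pairs and for genes with a count of 0, and for further calcium genes the largest call in each direction and up to 4 called with the highest TPM, of which 1 gene is not reported here. The members and lists were chosen with earlier results of these data known.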

Additional observations from a re-analysis of the deposited data

How the results depend on the processing

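The count of the 32 genes called in Low against High cells was 18 and ran between 5 and 19 when each library was left out in turn. In Low against QSCs it was 13 and became 20 at an adjusted p under 0.05, with the fold change threshold or without it, and in High against QSCs it was 24 and stayed within 1.5 times of that. Of the further calcium genes, 11 were called in Low against High cells, 17 with DESeq2, 18 at an adjusted p under 0.05, 17 with the fold change threshold as well, 24 with the replicate block in the cultured libraries alone, 15 with the block in all libraries, and 3 to 14 when each library was left out, the fewest without Low replicate 3. The cause was not tested. Subtracting the background moved the *Ryr1*, *Casq1* and *Atp2a1* shares by less than the SD of the group, and the other shares were not recomputed with it.

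Signs changed only in genes that were not called, apart from *Stim1*. In Low against QSCs on log2(TPM + 1) and log2(TPM + 0.1), the log2 fold change of *Stim1* was 0.14 and 0.15, of *Tmem38b* 0.17 and 0.17, of *Jsrp1* 0.30 and 0.30 and of *Cacna2d1* 0.70 and 0.76, and that of *Scn4a* was 0.049 on log2(TPM + 0.1). *Cacna2d1* was also positive with filterByExpr (0.031), no filter (0.13), only the groups compared (0.053), these with the replicate block (0.058), without QSCs replicate 3 (0.078) and without Low replicate 3 (0.026). Without QSCs replicate 2, *Scn4a* was 0.99 and *S100a1* -0.020, and without Low replicate 1, *Atp2a1* was -0.096, *Tmem38a* -0.13 and *S100a1* -0.096. In High against QSCs, *Casq1* was -0.16 with the replicate block in all libraries, -0.22 without QSCs replicate 1 and -0.45 without High replicate 1. There *S100a1* was -0.054 with upper-quartile scaling, -0.037 with the background subtracted, -0.064 without QSCs replicate 2, -0.031 without QSCs replicate 3 and -0.10 without High replicate 1, *Stim1* was -0.043 without High replicate 1, and *Itpr3* was -0.14 without High replicate 2. In Low against High cells, *S100a1* was -0.13 without Low replicate 1, -0.0042 without High replicate 2 and -0.027 without High replicate 3. Over all fits that left out 1 library, the highest values were 0.18 for *S100a1* in Low against High cells, 0.25 for *S100a1*, 0.75 for *Atp2a1* and 0.42 for *Tmem38a* in Low cells against QSCs, and 0.66 for *Casq1*, 0.21 for *S100a1*, 0.31 for *Stim1* and 0.32 for *Itpr3* in High cells against QSCs, and the lowest in Low cells against QSCs were -0.12 for *Cacna2d1* and -1.41 for *Scn4a*.

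Between the cultured groups, the replicate number as a block in the cultured libraries alone gained 7 genes and lost *Casq2*, while the block in all libraries gained *Stim1* and lost *Cacng6* (adjusted p = 0.0168), and the cultured libraries without the block gained *Jph2* and *Cacnb3* and lost 7 genes. QSCs share only a number with the cultured libraries. In fits of only the groups compared with that number as a block, 13 genes were called in Low against QSCs, where *Itpr3* was gained (adjusted p = 0.00789) and *Stim1* lost (0.0361), and 22 in High against QSCs, where *Jph1* (0.0153) and *Tmem38b* (0.0139) were lost. With the block in all libraries 17 were called in Low against QSCs, where *Cav3* (0.00383), *Hrc* (0.00914), *Cacna1h* (0.00778) and *Itpr3* (0.00518) were gained, and 24 in High against QSCs. *Sln* and *Clcn1* had a count of 0 in at least 1 library.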
